A study of Homo sapiens with 3 samples.

Results

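Binding of the transcription factor TFE3 was examined at 9 cathepsin genes, CTSA, CTSB, CTSC, CTSD, CTSF, CTSH, CTSL, CTSS and CTSZ. The genes were chosen by name, with earlier results of these data known. Each was given a window of its hg19 gene span with 5 kb on each side. These windows add up to 277 kb. They held 23 of the 62287 summits of ChIP replicate 1 and 28 of the 72647 summits of replicate 2, and 20 of the 47396 summits shared by both. A summit is the single base at which the authors placed the top of a binding peak. It counted as shared when the summits of the 2 lists were each other's nearest and lay at most 100 bp apart.

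The libraries came from HK-2, an established line of human kidney proximal tubule cells, carrying an HA-tagged TFE3 gene that doxycycline induces. Per the labels, cells were kept for 24 h with or without doxycycline at 0.2 µg/ml, and an anti-HA matrix was used to pull down the chromatin. Which libraries received doxycycline is not stated in the labels, so nothing is said about induction. The series holds 2 ChIP libraries and 1 input DNA library, and the labels do not tell whether the 2 ChIP libraries stem from different cultures, so their differences may be purely technical. The bound protein is the tagged TFE3 of the inducible gene, so binding of the cells' own TFE3 was not measured. No control for the precipitation was used here, and neither gene expression nor the amount of bound protein was measured.

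Cathepsins are proteases that work mostly in the acidic lumen of the lysosome, where they break down proteins delivered by endocytosis and autophagy. Most are made as inactive precursors that are activated by cleavage after delivery to acidic compartments. TFE3 belongs to the MiT/TFE family, whose members move to the nucleus when lysosomes are stressed or nutrients are scarce, and are known to bind E-box sequences in the promoters of many lysosomal genes. The proximal tubule reabsorbs filtered proteins and degrades them in its lysosomes. By mechanism the 9 enzymes are a serine carboxypeptidase (CTSA), an aspartic protease (CTSD) and 7 cysteine proteases.

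All 9 cathepsin windows held at least 1 shared HA-TFE3 summit. CTSD and CTSZ held 5 each, CTSB held 3, CTSC held 2, and CTSA, CTSF, CTSH, CTSL and CTSS held 1 each. The density over the 9 windows was 72.2 shared summits per Mb (95% Poisson interval 44.1 to 111.5), against 15.6 per Mb over the genome, a 4.63-fold difference. CTSD and CTSZ together supplied 10 of the 20 shared summits. The other 7 windows held 10 in 231 kb, or 43.3 per Mb (20.8 to 79.6), still above the genome value.

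The libraries gave similar densities when taken alone. Replicate 1 had 83.0 summits per Mb in the windows, 4.05-fold its genome value of 20.5, and replicate 2 had 101.1, which was 4.22-fold its value of 23.9. Of the window summits of replicate 1, 87.0% had a partner in replicate 2 (95% exact binomial interval 66.4 to 97.2), beside 76.1% over the whole list. Of those of replicate 2, 71.4% had a partner (51.3 to 86.8), beside 65.2% over the whole list. Both intervals include the whole-list share, so better sharing at cathepsin genes was not detectable with this number of summits.

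Genome tiles of the same length give a background for these counts. At least 1 shared summit lay in 18.0% of tiles of 17 kb, the window length of CTSF and CTSL, and in 19.6% of tiles of 19 kb, that of CTSA. The share was 22.5% at the 23 kb of CTSD and CTSZ, 30.7% at the 37 kb of CTSB and 31.7% at the 39 kb of CTSH. It was 35.3% at the 47 kb of CTSS and 38.5% at the 55 kb of CTSC. Counts as high as those of the fuller windows were rarer: 20.8% of 55 kb tiles held at least 2 shared summits, 6.77% of 37 kb tiles held at least 3, and 0.455% of 23 kb tiles held at least 5. CTSD and CTSZ thus stood in the last class, while the 1 summit of CTSS or CTSH is a count that many tiles of that length reach. The tiles include stretches without genes, and windows of other genes were not measured, so the counts are not shown to be particular to cathepsins.

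**Figure D1:**
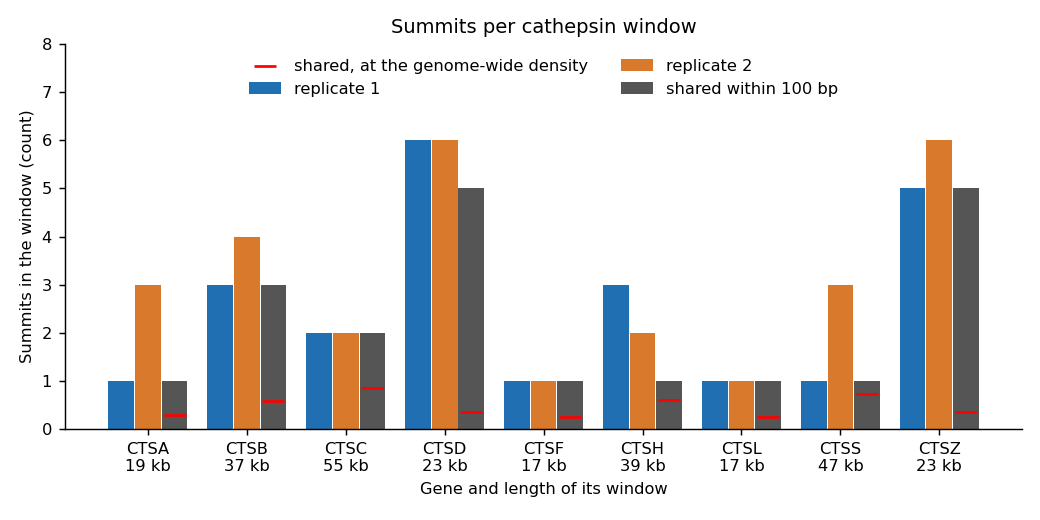
Number of HA-TFE3 summits (vertical axis) in the window of each cathepsin gene (horizontal axis, with the window length in kb), for replicate 1, replicate 2 and the summits shared within 100 bp. Red dashes mark the number of shared summits that the genome-wide density of 15.6 per Mb would give, which is under 1 in every window, so that a single shared summit ends above it. The tallest grey bars are those of CTSD and CTSZ, with 5 shared summits each.

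Positions within the windows were measured from the start of each gene span, the end from which the gene is transcribed. The spans are given to the whole kb, so these distances carry an error of that order, and alternative starts were not considered. Of the 20 shared summits, 14 lay in the gene spans, 5 upstream and 1 downstream. Around the starts, 8 lay within 2 kb, at 6 genes (CTSA, CTSC, CTSF, CTSL, CTSS and CTSZ), a density of 222.2 per Mb (95.9 to 437.9). The remaining 12 gave 49.8 per Mb (25.7 to 87.0) over the rest of the windows. The 2 intervals do not overlap, but they treat summits as independent, and no test was run. At CTSC and at CTSZ, 2 of these summits near the start lay 800 and 794 bp apart in replicate 1. Starts of other genes were not measured, so the density near the start is not shown to be particular to cathepsins. Within 1 kb of a start there were 6 shared summits, at CTSA, CTSC, CTSF and CTSZ, and CTSL lay just past that limit at 1.01 kb. Likewise, the closest CTSD summit lay just past the 2 kb limit, at 2.19 kb.

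**Figure D2:**
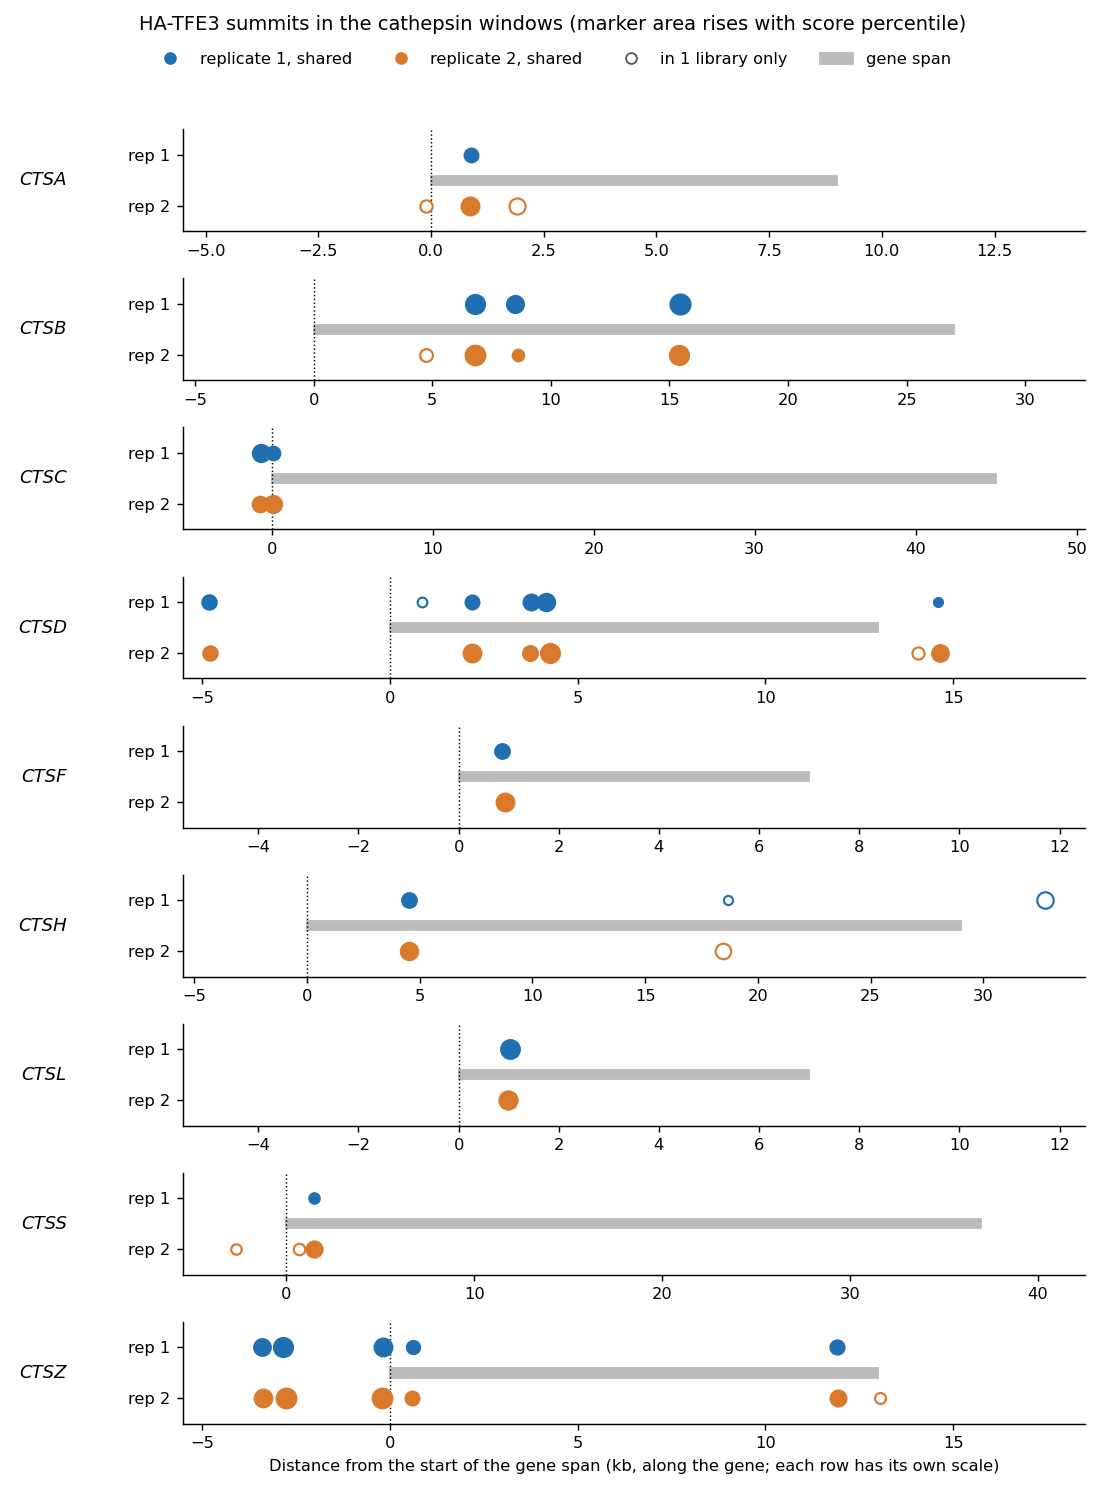
Summits of replicate 1 (upper points) and replicate 2 (lower points) in the 9 cathepsin windows, by distance in kb from the start of the gene span (grey bar), with filled points for shared summits, open points for summits in 1 library and a marker area that rises with the score percentile. The shared summits of CTSA, CTSC, CTSF, CTSL and CTSS sit within 2 kb of the start, and those of CTSB and CTSH only inside the gene.

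CTSA encodes a serine carboxypeptidase, also called protective protein, that holds lysosomal β-galactosidase and neuraminidase in a stable complex. Its only shared summit lay 0.87 kb inside the span, at base 44519884 of chromosome 20 in replicate 1 and base 44519865 in replicate 2. The authors' score was 6.50 in replicate 1, at the 34.2 percentile of that list, and 14.0 in replicate 2, at the 70.5 percentile. The libraries thus placed the site 19 bp apart but ranked it very differently. Replicate 2 had 2 further summits nearby, which replicate 1 lacked. The first lay 0.10 kb upstream of the span start, at base 44518898, with a score of 5.39 and a percentile of 24.0. The second, at base 44520905, scored 9.50. NEURL2 and SPATA25 lie next to the start of CTSA in the RefSeq gene order of GRCh38.p14, and PLTP overlaps its far end, so a summit in this window cannot be assigned to CTSA alone.

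CTSD encodes the main aspartic protease of the lysosome. Its 5 shared summits spread over the window, and none lay within 2 kb of the span start. That start is given to the whole kb, and the closest summit passed 2 kb by less than this error. The closest summit was 2.19 kb inside the span, at base 1783817 of chromosome 11 in replicate 1 and base 1783796 in replicate 2. It scored 6.67 and 13.6, at percentiles of 35.3 and 69.5. The highest-ranked of the 5 lay 4.22 kb inside, at bases 1781826 and 1781742, with scores of 11.8 and 19.2 and percentiles of 64.9 and 81.7. A neighbour 400 bp away in replicate 1, at bases 1782226 and 1782267, scored 8.78 and 7.34 (percentiles 51.6 and 43.1). This intragenic group thus held 3 shared summits within about 2 kb.

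The outer 2 shared summits of CTSD ranked lower. The upstream one, 4.80 kb before the start at bases 1790819 and 1790782, scored 7.12 and 6.95 (percentiles 39.4 and 38.9), the closest match in rank among all 20. The downstream one, at bases 1771408 and 1771347, scored 3.21 and 10.6, and its percentiles of 4.34 and 58.9 were the farthest apart of the 20. Each library also had 1 summit without a partner. That of replicate 1 was the only one near the start, 0.85 kb inside at base 1785149, with a score of 3.70 and a percentile of 8.16. RefSeq places the long noncoding RNA gene PRADX inside CTSD and IFITM10 beyond its far end. With a pairing limit of 50 bp, 3 of the 5 CTSD summits still counted as shared.

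The 4 cysteine cathepsins known for trimming peptides from their ends, CTSB, CTSC, CTSH and CTSZ, held 11 shared summits in 154 kb, a density of 71.4 per Mb (35.7 to 127.8). The 3 that act mainly as endopeptidases, CTSF, CTSL and CTSS, held 3 in 81 kb, a density of 37.0 per Mb (7.64 to 108.2). These intervals overlap widely, and the difference was not tested.

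CTSZ encodes cathepsin X, a carboxypeptidase. Its window on chromosome 20 held shared summits on both sides of the span start, which is given to the whole kb. The 2 nearest lay less than 1 kb from it, so their side of the actual start is not known. The summit nearest to the span start lay 0.20 kb upstream, at bases 57583182 and 57583217. It scored 13.3 in replicate 1 and 25.04 in replicate 2, at percentiles of 69.8 and 89.0. A weaker one followed 0.61 kb inside the span, at bases 57582388 and 57582396, with scores of 5.85 and 6.70 (29.8 and 35.0). Another 2 lay 2.79 and 3.38 kb upstream. The first, at bases 57585827 and 57585762, scored 18.7 and 25.7 (82.5 and 89.8) and was the highest-ranked of the gene. The second, at bases 57586395 and 57586369, scored 10.3 and 12.7 (59.3 and 67.6).

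The fifth CTSZ summit lay near the far end of the gene, 11.9 kb inside the span at bases 57571102 and 57571075, with scores of 6.89 and 9.19 (37.3 and 52.0). NELFCD lies beside this end in the RefSeq order, so the summit cannot be assigned to CTSZ alone. All 5 ranked higher in replicate 2. Replicate 2 also listed base 57569962, with a score of 4.41, without a partner. With flanks of 2 kb in place of 5 kb the gene kept 3 shared summits, because the upstream pair of summits fell outside.

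CTSB encodes an abundant cysteine protease that acts both as an endopeptidase and as a peptidyl dipeptidase. Its 3 shared summits lay inside the gene, on chromosome 8, and none near the start of the span. The cathepsin summit with the highest mean percentile of both libraries was among them, 15.4 kb inside at bases 11711558 and 11711583, with scores of 29.3 and 20.4 and percentiles of 93.4 and 83.5. In replicate 2, 2 summits of CTSZ and another of CTSB ranked above it. The second, 6.80 kb inside at bases 11720191 and 11720214, scored 19.1 and 25.4 (83.0 and 89.2). The third, 8.55 kb inside, had its summits exactly 100 bp apart, at bases 11718497 and 11718397, and only just met the pairing limit. It scored 11.2 in replicate 1 and 4.59 in replicate 2 (62.2 and 18.7). Replicate 2 had 1 unpaired summit, at base 11722264, with a score of 5.66. FDFT1 lies beyond the far end of CTSB in the RefSeq order.

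CTSC encodes dipeptidyl peptidase I, which activates serine proteases of immune cell granules by removing dipeptides. Its window, the longest at 55 kb, held summits only at the start, and both libraries listed the same 2. One lay 0.69 kb upstream at bases 88071686 and 88071693 of chromosome 11, 7 bp apart, the smallest distance among the 20. It scored 11.4 and 8.30 (63.9 and 48.7). The other lay 0.10 kb inside at bases 88070886 and 88070916 and scored 6.21 and 11.3 (33.4 and 62.9). The summits were 800 bp apart in replicate 1, and the libraries ranked them in opposite order. The noncoding gene LOC101929174 lies next to this start in the RefSeq order.

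CTSH encodes an aminopeptidase. Its shared summit lay 4.54 kb inside the span, at bases 79237456 and 79237468 of chromosome 15, and scored 7.26 and 12.2 (41.7 and 65.1). Near the middle of the gene, replicate 1 listed base 79223346 with a score of 3.33 and replicate 2 listed base 79223534 with 8.30. These were 188 bp apart, the closest pair outside the limit, and counted as shared when the limit was 200 bp. A further summit of replicate 1 at base 79209246, with a score of 9.91, had no summit of replicate 2 within 10 kb.

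CTSL encodes an endopeptidase that cleaves a broad range of lysosomal substrates. Its window held 1 summit in each library and nothing else. They lay about 1.01 kb inside the span, at bases 90341029 and 90340995 of chromosome 9, and scored 17.3 and 15.4. The percentiles, 79.6 and 74.2, made this, by their mean, the second-highest of the shared summits within 2 kb of a start, after the CTSZ summit 0.20 kb upstream, and the ranges of these 2 overlapped between libraries.

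CTSF and CTSS, both endopeptidases, each had 1 shared summit near the start. CTSS is known for its role in cleaving the invariant chain during antigen presentation. At CTSF the summits lay 0.90 kb inside, at bases 66336136 and 66336067 of chromosome 11, and scored 7.26 and 13.6 (41.7 and 69.5). They were 69 bp apart, so CTSF had no shared summit at a limit of 50 bp. At CTSS they lay 1.48 kb inside, at bases 150737514 and 150737528 of chromosome 1, and scored 4.35 and 9.50 (12.2 and 54.1), the lowest mean percentile of any gene's best summit. In replicate 2 the CTSC summit with the higher mean percentile ranked lower, at 48.7, but the other CTSC summit ranked higher, at 62.9. Replicate 2 had 2 more summits at CTSS, at bases 150738342 and 150741667, both with scores under 5 (4.59 and 4.29). In the RefSeq order ACTN3 lies beyond the far end of CTSF.

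Most cathepsin summits ranked in the middle of the lists, and none was among the 10000 highest scores of both. The median percentile of the 20 was 46.7 in replicate 1 and 66.3 in replicate 2, beside 59.1 and 64.3 over all shared summits. The mean of both percentiles had a median of 52.9, with the middle 50% of the summits between 43.6 and 74.2, beside 59.5 (38.8 to 79.5) over all. Scores above the median of both lists were found at 7 of the 20, or 4 of the 9 genes (CTSB, CTSD, CTSL and CTSZ), beside 51.1% of all shared summits. Among the 10000 highest scores of both lists there were 0 of 20, which allows a share of up to 15% (3 counts of 20), beside 14.2% of all shared summits. Another count took a summit that reached the highest 10000 of either list, and 4 of the 20 did so, 2 of CTSB and 2 of CTSZ. The same share over all shared summits was not counted, so this number cannot be called high or low.

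In absolute size, the rank differences between the libraries were near those of other shared summits. The percentile was higher in replicate 2 for 14 of the 20 summits, beside 57.2% of all shared summits. Among shared summits with a mean percentile in the range of the cathepsin summits, the share was 58.5%. No interval was computed for the 14 of 20, so a lean particular to cathepsin summits is not shown. The median absolute difference was 16.0 percentile points, beside 11.7 over all shared summits and 14.1 over the 32788 whose mean percentile lay in the range of the cathepsin summits (31.6 to 88.4). The 3 summits of CTSS (41.9 points), CTSB at 8.55 kb (43.6) and CTSD downstream (54.6) exceeded the 39.3 points that 90% of that range stayed under. Percentiles refer to lists of different length, so these differences measure spread and not a change in binding. The paired summits lay a median of 28.5 bp apart, beside 26 bp over all, within the pairing limit of 100 bp.

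**Figure D3:**
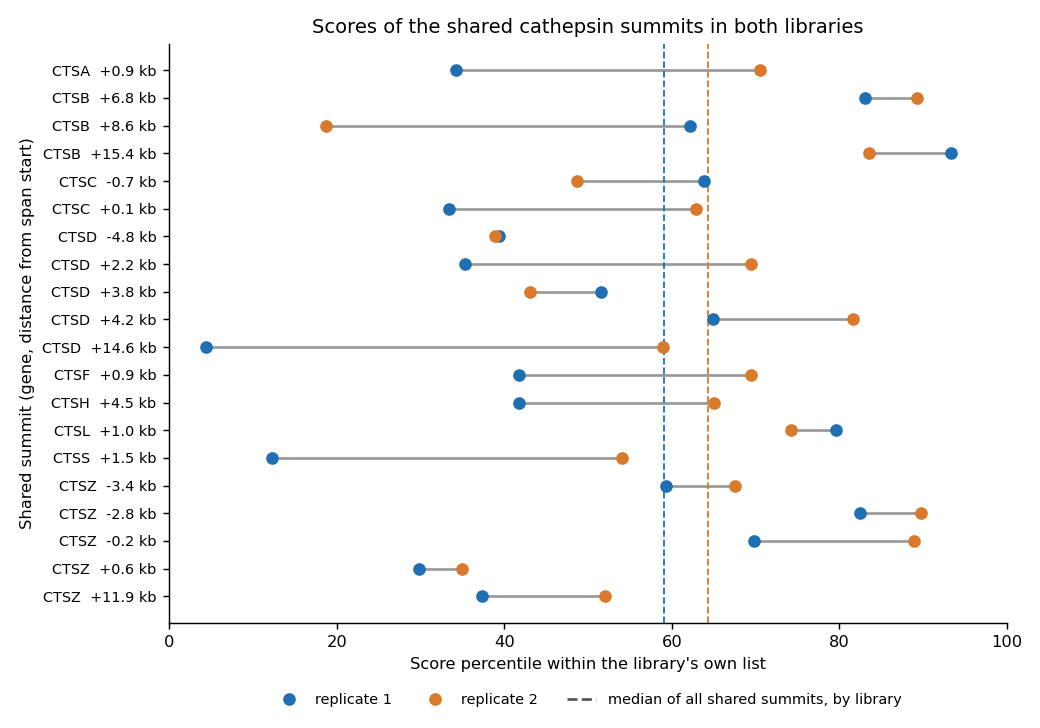
Score percentile of each of the 20 shared cathepsin summits (horizontal axis, in percent of the library's own list) in replicate 1 and replicate 2, joined by a line, with the median of all shared summits in each library as a dashed line (59.1 and 64.3). Both points lie above 80 for 2 summits of CTSB and 1 of CTSZ, and the longest line, at the downstream CTSD summit, runs from 4.34 to 58.9.

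Ordered by the best shared summit of each gene, CTSB and CTSZ came first, with mean percentiles of 88.4 and 86.1. CTSL followed with 76.9, CTSD with 73.3, CTSC with 56.3, CTSF with 55.6, CTSH with 53.4, CTSA with 52.4 and CTSS with 33.2. The libraries' values of CTSB and CTSZ overlapped, as did those of CTSL and CTSD, so neither pair can be ordered. CTSZ was above CTSL in both libraries, and CTSD was above CTSC in both. From CTSC to CTSS each gene's values overlapped those of the next. Within each library, CTSB, CTSZ, CTSL and CTSD all lay above the last 5 genes. The value of CTSD in replicate 1, 64.9, was however below those of CTSF, CTSH and CTSA in replicate 2. Only the ranges of CTSB, CTSZ and CTSL thus stayed clear of the ranges of all of the last 5 genes. The order depended on the limits used. With a pairing limit of 50 bp the best summit of CTSD had a mean percentile of 52.4, below CTSC. With flanks of 10 kb that of CTSD had 89.3, above CTSB with 88.4, and that of CTSA had 83.9, above CTSL. That of CTSZ had 79.4 with a pairing limit of 50 bp or with flanks of 2 kb, still above CTSL.

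Shared summits also lay just outside the windows. The shared summit nearest inside the outer limit was that of CTSD at 4.80 kb upstream, with percentiles of 39.4 and 38.9. Just outside, at 5.23 kb upstream of CTSA, bases 44513761 and 44513788 had percentiles of 81.2 and 51.7. At 5.65 kb upstream of CTSB, bases 11732648 and 11732645 had 80.3 and 85.8. At 7.94 kb upstream of CTSD, bases 1793937 and 1793945 had 89.3 and 89.2, higher in both libraries than any summit in the CTSD window. At 9.22 kb upstream of CTSA, bases 44509752 and 44509800 had 74.1 and 93.8. These 4 were all the shared summits between 5 and 10 kb from the spans, and all 4 lay upstream.

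The RefSeq table gave promoter sequences for 7 of the 9 genes, each a window of 250 bases before to 50 after the start on GRCh38.p14, with CTSB and CTSS unmatched. Motifs were searched on both strands. The E-box core CACGTG was found in CTSA, CTSD and CTSF, 3 of 7, beside 7.23% of 34943 RefSeq promoter windows. CTSA and CTSF each held it at 2 places, as did 0.661% of all windows. The longer form GTCACGTG, which contains the core and is part of the site known from lysosomal gene promoters, was found in CTSA and CTSD, beside 2.39% of all windows. TCACGTG, which also contains the core, was found in CTSA, CTSD and CTSF, beside 3.69%. The M-box type core CATGTG was found in CTSA, beside 11.1%, and the AP-1 type motif TGANTCA in none of the 7, beside 7.72%.

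The last 150 bases before the start are shown, 5′ to 3′ on the strand of the gene, for the 3 genes with an E-box core and for CTSL and CTSZ, which had the highest-ranked summits within 2 kb of a start and no such match. Capitals mark CACGTG and, in CTSA, CACATG, which is CATGTG on the other strand. The stretches are chr20:45891185-45891334 (plus strand) for CTSA, chr11:1763928-1764077 (minus) for CTSD, chr11:66568607-66568756 (minus) for CTSF, chr9:87725969-87726118 (plus) for CTSL and chr20:59007255-59007404 (minus) for CTSZ, all on GRCh38.p14.
CTSA: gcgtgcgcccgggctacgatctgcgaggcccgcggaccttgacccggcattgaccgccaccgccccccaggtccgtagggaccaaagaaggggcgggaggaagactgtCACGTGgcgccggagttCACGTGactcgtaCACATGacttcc
CTSD: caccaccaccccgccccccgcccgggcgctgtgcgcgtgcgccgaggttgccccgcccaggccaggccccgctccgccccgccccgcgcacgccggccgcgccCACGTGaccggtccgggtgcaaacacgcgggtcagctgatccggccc
CTSF: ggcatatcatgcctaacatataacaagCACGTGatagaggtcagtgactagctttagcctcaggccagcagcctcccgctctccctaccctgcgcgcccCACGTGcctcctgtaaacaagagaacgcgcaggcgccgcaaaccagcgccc
CTSL: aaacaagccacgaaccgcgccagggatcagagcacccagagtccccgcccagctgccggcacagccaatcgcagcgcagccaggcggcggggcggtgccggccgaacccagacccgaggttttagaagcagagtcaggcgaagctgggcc
CTSZ: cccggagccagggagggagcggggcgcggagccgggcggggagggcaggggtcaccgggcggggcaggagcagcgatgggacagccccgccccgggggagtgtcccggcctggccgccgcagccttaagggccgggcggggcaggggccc

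In CTSA the E-box cores began 42 and 25 bases before the start, the first preceded by GT and the second followed by AC, and the M-box type core began 12 bases before it. In CTSD the core began 47 bases before the start and was followed by AC. In CTSF the cores began 123 and 51 bases before it, and only the farther one carried an adjacent A of the TCACGTG form. The windows of CTSC, CTSH, CTSL and CTSZ held neither core.

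**Figure D4:**
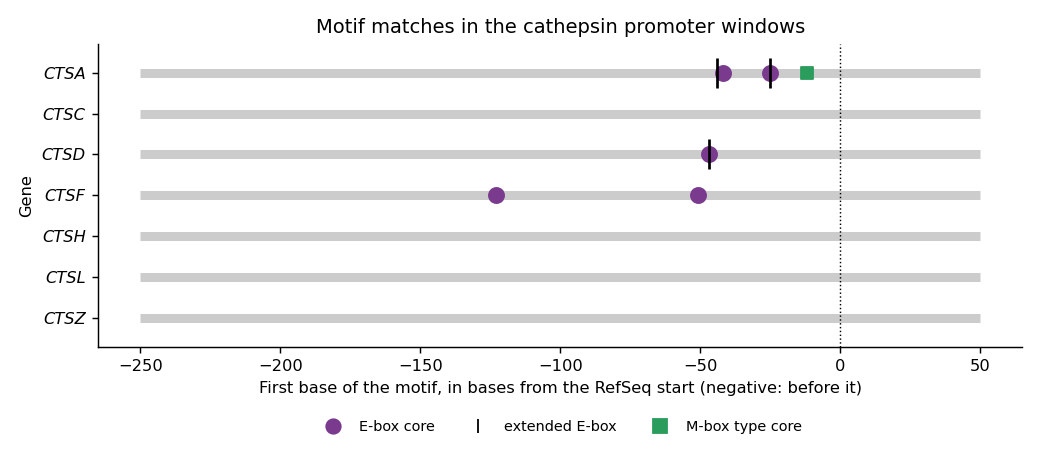
Position of the first base of each motif match (horizontal axis, in bases from the RefSeq start, negative before it) in the promoter windows of 7 cathepsin genes (vertical axis, grey bars), with circles for the E-box core, ticks for the extended form and a square for the M-box type core. Matches appear in CTSA, CTSD and CTSF, all within 123 bases before the start.

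The E-box cores and the summit ranks near the start can be set side by side, as a description only. Among genes with a shared summit within 2 kb of the start, CTSA and CTSF held the E-box core, and these summits had percentiles of 34.2 and 41.7 in replicate 1 and 70.5 and 69.5 in replicate 2. CTSL and CTSZ held none. Their highest start summits had 79.6 and 69.8 in replicate 1 and 74.2 and 89.0 in replicate 2, above those of CTSA and CTSF in both libraries. The other CTSZ summit within 2 kb had 29.8 in replicate 1 and 35.0 in replicate 2, below those of CTSA and CTSF in both. CTSC, also without a core, had 33.4 and 63.9 in replicate 1 and 62.9 and 48.7 in replicate 2. CTSD held the core, and its closest shared summit, at 2.19 kb, passed the 2 kb limit by less than the error of the span start. Summits listed by 1 library only were left out of this comparison. Within 2 kb of a start these include the CTSA summit 0.10 kb upstream in replicate 2. They also include the CTSD summit 0.85 kb inside in replicate 1. With 7 genes no relation was tested. The motifs were read on GRCh38.p14 and the summits on hg19, so whether a match lies under a summit was not tested. The starts also differed, with RefSeq starts for the motifs and span starts to the whole kb for the summits. A missing match says only that these letters are not in the window.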

How the data were processed

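HA-TFE3 binding was measured by ChIP-seq in 2 replicate libraries, and 1 input DNA library entered no comparison. The authors deposited, for each ChIP library, a list of 1 bp summits with a score per summit. No label gives the scale of this score, so it served only to rank summits within a list. Per the submitters' processing notes the build is hg19. The aligner, peak caller, settings and any use of the input for background were not given in the sources used here. Whether peaks were called per library or on pooled reads is likewise unknown, and the peak names are numbered separately in the 2 lists.

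Positions were converted to 1-based bases, and summits on chromosomes 1 to 22 and X were kept. A cathepsin window is the gene span, to the whole kb, with 5 kb on each side. Summits of both lists were paired when mutually nearest and at most 100 bp apart. Percentiles are ranks within a list, with ties averaged. Genome tiles are consecutive stretches of the same length as a window, with chromosome lengths from GenomeInfoDb 1.38.1. Intervals are exact 95% intervals, Clopper-Pearson for shares and Poisson for densities, and the limit given for a count of 0 is 3 counts of the total. All cover counting error only. With 1 group of 2 libraries no test was run. Sequencing depth is unknown, because the lists hold no read counts.

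Promoter windows came from RefSeq on GRCh38.p14, and neighbouring genes from the order of genes in that assembly. No hg19 sequence or gene table was used here, so no motif was placed under a summit, and the planned list of other cathepsin and partner genes was not run. The members, windows and lists were chosen with earlier results of these data known. All 9 genes are named and all their shared summits are described. Other pairing limits, flanks, score classes and each library alone were tried. The pairing step was tested on simulated lists. The work was done in Python 3.11.15 with SciPy 1.17.1, pandas 2.3.3, NumPy 2.4.6 and, for the figures, matplotlib 3.10.9.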

Additional observations from a re-analysis of the deposited data

How the results depend on the processing

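Score limits changed the counts most. When each list was limited to summits scoring above its median, 7 summits were shared at 4 genes, 1 gene kept a shared summit within 1 kb of its start, the shares of window summits that were shared were 63.6% and 43.8%, and the median percentile was 79.4. With the 10000 highest-scoring summits of each list, 0 summits were shared at 0 genes, so 0 lay near a start, both shares were 0% and there was no median. These limits remove low-ranked summits by construction. With a pairing limit of 50 bp the share of replicate 1 was 65.2%, and 15 summits were shared at 8 genes. Whole-list shares were not computed under these score and pairing limits. Whether the shares fell more in the cathepsin windows than over the lists is therefore not known. Limits of 200 and 500 bp and flanks of 2 and 10 kb gave 17 to 24 shared summits, at 9 genes each. Counting all summits of 1 library, with the other left out, gave 23 to 28 summits at 9 genes, 5 to 6 of them with a summit near the start, and median percentiles of 41.7 to 54.1. Within 2 kb of a start the count was 6 genes. The number of promoters with an E-box core, 3, was the same in the 250 bases before the start. No paired analysis was possible because both ChIP libraries belong to 1 group.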
